A study of Mus musculus with 12 samples.

Results

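The nuclear genes for subunits of the respiratory chain and ATP synthase were followed through ischemia and reperfusion of the mouse heart. They were taken as the gene symbols built from Nduf (a, b, c, s, v or ab and a number), Sdh (a to d), Uqcr, Cox4 to Cox8 and Atp5, with pseudogene symbols ending in -ps left out. This gave 84 genes of 33615 symbols: 37 for complex I (NADH dehydrogenase), 4 for complex II (succinate dehydrogenase), 8 for complex III (cytochrome bc1 complex), 18 for complex IV (cytochrome c oxidase) and 17 for complex V (ATP synthase). The symbol rule takes in Atp5s and Atp5sl, which are not ATP synthase subunits, Ndufa4, which is now assigned to complex IV, and Cox7a2l, a factor of respiratory supercomplexes. It leaves out Cyc1, a complex III subunit. Bulk RNA sequencing of frozen heart tissue gave 12 libraries, 4 in each group. The groups were 30 min of ischemia and 2 h of reperfusion plus treatment with ML264, an inhibitor of the transcription factor KLF5 (I/R + ML264), the same ischemia and reperfusion without it (I/R), and a sham operation sampled at 2 h (Sham). The study asked which pathways depend on KLF5 in this injury. Strain, age, sex, time of day and the dosing of ML264 are not stated in the labels. They do not name the animals either. The p-values therefore set group differences against how far libraries of a group differ, and that spread may in part be technical.

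The respiratory chain passes electrons from NADH and succinate to oxygen through complexes I to IV and uses the energy to pump protons across the inner mitochondrial membrane. ATP synthase lets the protons flow back and makes ATP, most of which the heart spends on contraction and ion transport. Mitochondrial DNA encodes a few core subunits of every complex except complex II, and all other subunits come from nuclear genes whose promoters often carry sites for NRF1, GABP (an ETS factor), YY1 and the estrogen-related receptors.

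Promoter sequences of RefSeq (GRCm38.p6), running from 250 bases before a gene's start to 50 after it, were found for 70 of the 84 members. The NRF1 core GCGCATGCG stood on either strand in 8 of the 70 members (11.4%), against 1.95% of all 27025 genes with such a sequence. The YY1 core AAGATGGCG was also held by 8 members (11.4%), against 1.64% of all genes. The ETS core CCGGAAGT was in 5 members (7.14%, against 4.31%), the estrogen-related receptor element TCAAGGTCA in 2 members (2.86%, against 0.466%) and the GC box GGGGCGGGG in 12 members (17.1%, against 12.9%). These motifs do not contain one another, although the NRF1 core can be read on both strands of the same 10 bases. A match is a description of the letters and shows no binding. Uqcr11, Uqcrh and Ndufa11, which are described below, are shown as examples over the last 100 bases before the start. Their NRF1 and ETS cores are in capitals, and the sequences run 5′ to 3′ on the gene's strand. Each ends at the gene's start or at the last base of a core that crosses it. The NRF1 core of Uqcr11 is read on the other strand.
Uqcr11 (minus strand, chr10:80406818-80406921, an ETS core and then an NRF1 core): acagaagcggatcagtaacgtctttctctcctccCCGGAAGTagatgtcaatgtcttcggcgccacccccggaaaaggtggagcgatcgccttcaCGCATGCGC
Uqcrh (minus strand, chr4:116075071-116075170, an ETS core read on the other strand): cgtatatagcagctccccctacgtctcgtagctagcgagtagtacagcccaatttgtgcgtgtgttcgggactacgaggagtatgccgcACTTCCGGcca
Ndufa11 (plus strand, chr17:56717662-56717761, NRF1 cores on both strands): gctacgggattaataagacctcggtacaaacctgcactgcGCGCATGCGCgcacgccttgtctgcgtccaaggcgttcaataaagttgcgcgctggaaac

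Estimated counts summed to 22.26 to 29.93 M per library. The 84 members took 0.39% to 0.49% of them, and the mitochondrially encoded genes 35.24% to 41.13%. All 12 cardiomyocyte markers were detected, with summed levels of 95460 to 105100 CPM in I/R + ML264, 93220 to 106700 CPM in I/R and 88070 to 101200 CPM in Sham (CPM, counts per 1000000 with library sizes scaled by TMM factors). Ddx3y, a Y-linked gene, was at most 0.4842 CPM in I/R + ML264 libraries 1 and 2 and I/R libraries 1 and 4. Elsewhere it was at 38.79 to 51.97 CPM, in all 4 Sham libraries too, so the mix of such libraries differed between the groups.

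Only gene sums are used for the members. The deposited table lists transcripts, but among genes with 2 transcripts, libraries of different groups shared the leading transcript in 50.1% of pairs. With 5 transcripts the shares were 20.1% within groups and 20.3% between groups, which is about the rate of drawing a transcript at random. None of the 59 members with at least 2 transcripts and a mean of at least 100 counts kept 1 leading transcript in all 12 libraries. Sdha, the flavoprotein subunit of complex II, had 4 leading transcripts, and each held at least 98.55% of the gene's counts in its library. The gene sum of Sdha stayed within 307.5 to 441.7 CPM over the libraries. Some members varied more between libraries, such as Ndufs5 and Ndufb5 below. No transcript was read further.

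The summed levels of the complexes were close in the 3 groups. Complex I members summed to 1101 ± 94.7 CPM in I/R + ML264, 1099 ± 72.8 CPM in I/R and 1084 ± 84.3 CPM in Sham (SD, n = 4 libraries each here and below). Complex II members summed to 532.7 ± 45.7 CPM in I/R + ML264, 545.7 ± 48.6 CPM in I/R and 519.7 ± 59.4 CPM in Sham. The sums of complex III were 346.7 ± 26.8 CPM in I/R + ML264, 345.5 ± 32.3 CPM in I/R and 328.3 ± 22.7 CPM in Sham. In these 3 complexes the group means lay within 1 SD of each other, and all groups overlapped. Complex IV members summed to 397.5 ± 55.3 CPM in I/R + ML264, 423.2 ± 50.1 CPM in I/R and 381.5 ± 45.7 CPM in Sham. For ATP synthase the sums were 2042 ± 141 CPM in I/R + ML264, 1941 ± 120 CPM in I/R and 1885 ± 116 CPM in Sham. The widest difference of group means on the log2 scale was 0.15 for complex IV in I/R against Sham, where the pooled SD was 0.17, and 0.12 for ATP synthase in I/R + ML264 against Sham, where it was 0.09. These sums are descriptions with no test. In bulk tissue, fewer cardiomyocytes and less RNA per cardiomyocyte cannot be told apart.

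**Figure D1:**
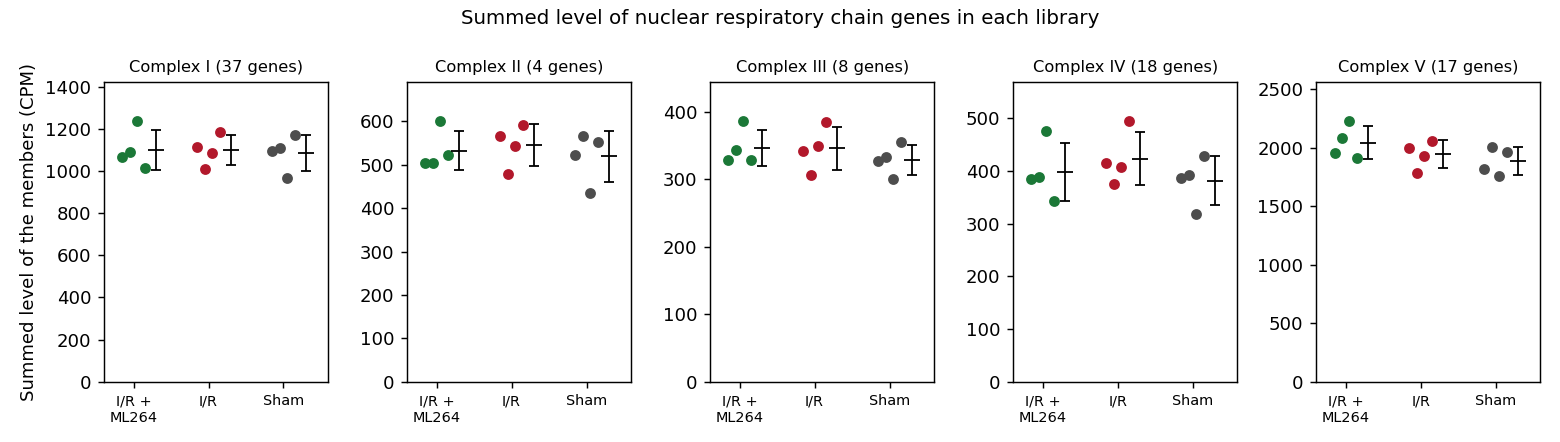
Summed CPM of the members of each complex (vertical axis, from 0) in every library, by group (I/R + ML264, I/R, Sham; horizontal axis); dots are libraries, and the bar beside them is the mean with its SD (n = 4). The groups overlap in all 5 complexes, for example 1014 to 1235 CPM in I/R + ML264, 1010 to 1186 CPM in I/R and 968 to 1169 CPM in Sham for complex I.

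A few genes carried much of the sums of complexes II to V. Sdha and Sdhc held 83.8% of the summed CPM of complex II, Uqcrc2 and Uqcrc1 76.5% of complex III, Atp5a1 and Atp5b 65.2% of ATP synthase and Cox6a2 and Cox4i1 48.9% of complex IV. Levels are compared between genes only after division by transcript length, taken as the longest principal coding transcript of GENCODE M21, in CPM per 1000 bases over the 12 libraries. On that scale Atp5b, the catalytic beta subunit, was highest of the 80 members tested that had a length (324.6), then Atp5a1, the alpha subunit (264.7), and Cox6a2, the heart and muscle form of a small complex IV subunit (223.1). In complex II the highest were Sdha (132.0) and Sdhb, the iron-sulfur subunit (43.29), and in complex III the core proteins Uqcrc2 (91.62) and Uqcrc1 (52.41). Sdhc, second in complex II by CPM, was its lowest member per length (20.06). Ndufa4, counted with complex I by its symbol, stood at 81.67. Among the Cox symbols Cox7c, a small subunit, came after Cox6a2, at 61.85. Within ATP synthase, whose subunits enter the enzyme in fixed numbers, the level per length still ran down to 3.526 for Atp5k, the e subunit of the membrane part.

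Part of this range went with transcript length. Across the 82 members with counts and a length, log2 CPM and log2 length had a Pearson r of 0.56 and a Spearman rho of 0.60 while log2 CPM per 1000 bases still had r = 0.25 and rho = 0.23 with length. These are descriptions across genes that share libraries. The median level per 1000 bases was 14.4 CPM for the 49 members under 1000 bases and 30 CPM for the 33 longer ones. For 4 members the longest and the shortest principal transcript differ more than 2-fold, and Atp5g1 would stand at 290.7 instead of 36.75 CPM per 1000 bases with its shortest.

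**Figure D2:**
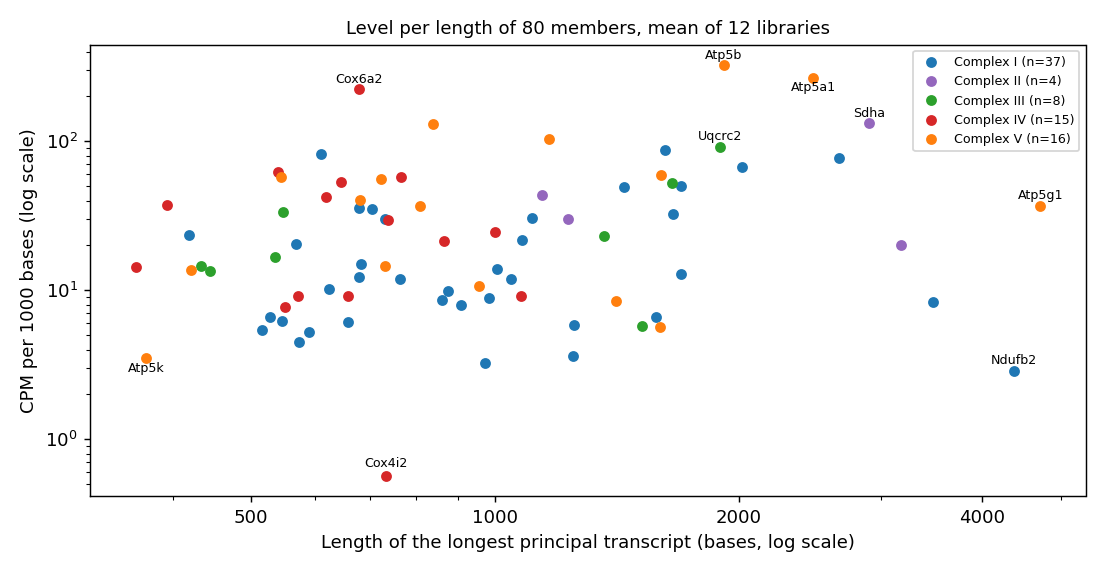
Mean level over 12 libraries (CPM per 1000 bases, log scale) against length of the longest principal transcript (bases, log scale) for the 80 members tested that have a length; each dot is a gene, coloured by complex. Atp5b at 324.6 is highest and Cox4i2 at 0.569 lowest.

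No member passed the test in any comparison, in a fit over all genes in which others did. In I/R against Sham the edgeR quasi-likelihood test called 0 of 81 members at a Benjamini-Hochberg adjusted p under 0.05, against 7.75% of all 15952 genes tested (1236, of which 731 rose and 505 fell). At an unadjusted p under 0.05 there were 8 members (9.88%; 6 higher, 2 lower), against 23.2% of all genes. The 4 I/R and 4 Sham libraries did not overlap for 4 members (4.94%), against 15.8% of all genes. DESeq2 also called 0 members, against 11.2% of all 15933 genes it gave an adjusted p (1779). In I/R against Sham each of these shares of members was below the share over all genes. The median log2 fold change was 0.009 over the members and 0.002 over all genes, and the 95% interval of 64 members lay within a 1.5-fold change either way and that of 79 members within 2-fold.

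With ML264 the fit again called 0 of 81 members against I/R alone, where 0.0502% of all genes were called (8 genes). There were 7 members at an unadjusted p under 0.05 (8.64%; 4 higher, 3 lower), against 10.4% of all genes. DESeq2 called 1 member (1.23%), against 0.948% of all genes (151). Libraries did not overlap for 3 members (3.70%, all higher with ML264), against 5.62% of all genes. The median log2 fold change was 0.03 over the members and 0.000 over all genes, and 69 members had an interval within 1.5-fold and 79 within 2-fold. In I/R + ML264 against Sham edgeR called 0 members, against 0.288% of all genes (46), and DESeq2 0 members, against 2.32% (370). In edgeR 4 members had an unadjusted p under 0.05 (4.94%, all higher), against 13.0%. Libraries did not overlap for 1 member (1.23%), against 7.37% of all genes, and the median was 0.07 over the members and 0.002 over all genes. The 3 comparisons share libraries, I/R being the base of the second and Sham of the others, so their values for a gene are not independent.

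By complex, the median log2 fold change in I/R against Sham was -0.04 for complex I (15 members above 0, 22 below), -0.02 for complex II, 0.07 for complex III, 0.005 for complex IV and 0.12 for ATP synthase (14 above 0, 3 below). With ML264 relative to I/R the medians were 0.05, -0.01, 0.008, 0.07 and -0.02 in the same order of complexes. In I/R + ML264 against Sham they were 0.04, 0.009, 0.09, 0.08 and 0.13. The median standard error (SE) of a member was 0.14 on this scale, and no difference between complexes was tested.

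**Figure D3:**
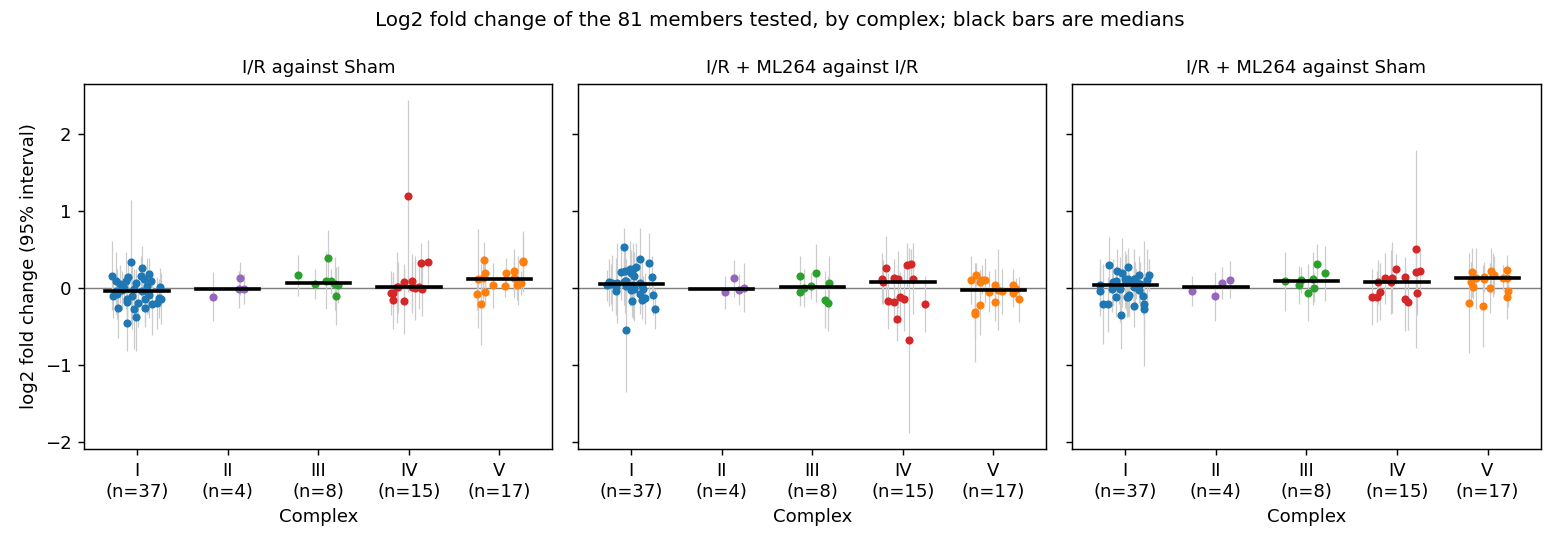
Log2 fold change (vertical axis) of the 81 members tested, by complex (horizontal axis, with the number of members), in the 3 comparisons; dots are genes, grey lines 95% intervals and black bars the median of a complex. Members lie on both sides of 0 in every complex, and the dot near 1.19 in I/R against Sham is Cox4i2, with the widest interval.

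In complex I, Ndufs7 had the highest log2 fold change with ML264 relative to I/R. It codes for the subunit that carries the last iron-sulfur cluster before ubiquinone. Ndufs7 stood at 10.15, 9.523, 11.72 and 10.1 CPM in I/R + ML264, at 7.031, 7.037, 7.803 and 6.851 CPM in I/R, and at 7.962, 8.873, 8.233 and 9.301 CPM in Sham. The 3 groups did not overlap, as all I/R + ML264 libraries were above all Sham libraries, and these above all I/R libraries. The log2 fold change with ML264 relative to I/R was 0.53 ± 0.12 (SE; 95% interval 0.28 to 0.78), with an adjusted p of 0.118 in edgeR and of 0.00705 in DESeq2, so the call depends on the tool. It was -0.26 ± 0.12 in I/R against Sham (adjusted p = 0.192) and 0.27 ± 0.12 in I/R + ML264 against Sham (adjusted p = 0.327).

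Ndufb5, an accessory subunit of the membrane arm, was the lowest complex I member in I/R against Sham. It stood at 20.89, 20.37, 34.78 and 18.21 CPM in I/R + ML264, at 22.26, 18.2, 17.98 and 21.11 CPM in I/R, and at 23.98, 27.52, 26.96 and 30.76 CPM in Sham. All I/R libraries were below all Sham libraries, and I/R + ML264 libraries 1, 2 and 4 lay inside the I/R range while library 3 was above every other library. The log2 fold change in I/R against Sham was -0.46 ± 0.17 (95% interval -0.82 to -0.10; adjusted p = 0.115). Ndufb5 passed the test (adjusted p = 0.0155) without I/R + ML264 library 3 and also with only the I/R and Sham libraries in the fit (adjusted p = 0.0157).

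Other complex I members stood at the ends of the range. Ndufa3 and Ndufa2, accessory subunits, were at -0.38 ± 0.21 and -0.28 ± 0.25 in I/R against Sham. Ndufa6, an accessory subunit of the matrix arm, and Ndufa11, a membrane subunit, were at 0.38 ± 0.19 and 0.32 ± 0.19 in I/R + ML264 against I/R. Ndufs5, an accessory subunit on the intermembrane side, was at -0.54 ± 0.37 there, and I/R + ML264 library 1 (3.476 CPM) and Sham library 3 (3.022 CPM) lay below the 7.32 to 11.16 CPM of all others. Of its 31-base words, 26.47% also occur in transcripts of another gene, so its counts are uncertain. In I/R + ML264 against Sham, Ndufa1, an X-linked accessory subunit, was at 0.30 ± 0.17, and Ndufb7 and Ndufv3, accessory subunits, at -0.28 ± 0.16 and -0.24 ± 0.12. None of these had an adjusted p under 0.05, and for none did the interval exclude 0. Ndufa4, counted here by its symbol only, was at 0.05 ± 0.12 in I/R against Sham.

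Complex II also works in the TCA cycle. Sdha stood at 356.1, 339.6, 441.7 and 392.3 CPM in I/R + ML264, at 413.8, 350.7, 401.1 and 430.4 CPM in I/R, and at 366.0, 420.0, 307.5 and 374.1 CPM in Sham. The groups overlapped throughout. Log2 fold changes were 0.12 ± 0.10 for Sdha and -0.02 ± 0.11 for Sdhb in I/R against Sham, and -0.06 ± 0.10 and 0.12 ± 0.11 in I/R + ML264 against I/R. The 95% intervals of all 4 members lay within 1.5-fold in each comparison.

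In complex III, Uqcr11, the smallest subunit, had the highest value in I/R against Sham among members averaging 1 or more in log2 CPM. It stood at 5.493, 6.251, 6.958 and 8.611 CPM in I/R and at 4.705, 5.867, 4.69 and 5.567 CPM in Sham, with overlap, and the log2 fold change was 0.39 ± 0.17 (95% interval 0.03 to 0.75; adjusted p = 0.176). Uqcrh, the hinge protein beside cytochrome c1, was at 0.31 ± 0.13 in I/R + ML264 against Sham (adjusted p = 0.296). Its levels were 20.57, 20.98, 24.46 and 15.79 CPM in I/R + ML264 against 15.74, 16.12, 15.42 and 18.78 CPM in Sham, with library 4 of I/R + ML264 inside the Sham range. Of the core proteins, Uqcrc2 was at 0.08 ± 0.08 and Uqcrc1 at 0.05 ± 0.09 in I/R against Sham.

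Complex IV held a heart form whose mean was highest in I/R, although neither comparison that involves I/R called it. Both comparisons use the same 4 I/R libraries, so their opposite signs are not independent. Cox6a2 stood at 132.8, 128.6, 154.6 and 123.6 CPM in I/R + ML264, at 183.9, 154.5, 165.8 and 209.3 CPM in I/R, and at 164.9, 151.5, 102.5 and 148.4 CPM in Sham. The I/R + ML264 and I/R libraries met only at 154.6 and 154.5 CPM. The log2 fold change was -0.40 ± 0.13 with ML264 relative to I/R (95% interval -0.69 to -0.12; adjusted p = 0.305) and 0.33 ± 0.13 in I/R against Sham (adjusted p = 0.151). Cox7b, an X-linked small subunit, chosen here after its values were seen, was at 26.57, 30.12, 30.14 and 24.92 CPM in I/R + ML264 and 22.19, 20.84, 22.77 and 24.71 CPM in I/R, without overlap. Its log2 fold change was 0.31 ± 0.09 (adjusted p = 0.266), and that against Sham 0.24 ± 0.09 (adjusted p = 0.273). Cox7c was at 0.32 ± 0.13 in I/R against Sham (adjusted p = 0.136), again without overlap between the 4 and 4 libraries.

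Complex IV subunits with tissue forms kept the heart pattern in every library. The shares are of the summed level per length of each gene family. Cox6a2 made up 95.8 ± 0.375% of Cox6a2 and Cox6a1 in I/R + ML264, 96.5 ± 0.473% in I/R and 95.6 ± 0.687% in Sham. Cox7a1, the muscle form, made up 82.4 ± 1.07% of Cox7a1 and Cox7a2 in I/R + ML264, 78.4 ± 3.04% in I/R and 79.2 ± 6.88% in Sham. The share of the heart form was at least 71.2% in each library for both. Cox8b, the heart and muscle form, held 58.7% to 69.0% beside Cox8a over the 12 libraries, with group means of 65.1% in I/R + ML264, 65.7% in I/R and 64.1% in Sham. Cox4i1 held 97.5% to 99.7%, the rest being Cox4i2, a form known for its response to low oxygen in other tissues. Cox6b1 held 98.9% or more in every library.

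Cox4i2 and the testis forms were at or near the floor, where 3 counts stand for 0.1002 to 0.1348 CPM in a library, a limit that covers counting error only. Cox4i2 stood at 0.1419, 0.6779, 0.1558 and 0.5292 CPM in I/R + ML264, at 1.062, 0.3538, 0.5631 and 0.4492 CPM in I/R, and at 0.3619, 0.1811, 0.1389 and 0.3875 CPM in Sham. With 133 counts in all 12 libraries, its log2 fold change in I/R against Sham of 1.19 had an SE of 0.59 (95% interval -0.06 to 2.43; adjusted p = 0.233). The testis forms had too few counts to be tested: Cox6b2 had 31 counts in all, Cox7b2 12 and Cox8c 0, which allows up to 0.1348 CPM in the shallowest library.

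In ATP synthase, Atp5l, subunit g of the membrane part, came closest to the threshold in I/R against Sham. It stood at 32.39, 33.77, 29.17 and 29.33 CPM in I/R + ML264, at 45.11, 33.34, 29.97 and 33.66 CPM in I/R, and at 24.65, 27.05, 30.64 and 28.75 CPM in Sham. I/R library 1 was the highest of the 12, and I/R library 3 lay inside the Sham range. The log2 fold change was 0.35 ± 0.12 (95% interval 0.11 to 0.60; adjusted p = 0.0707). It passed without I/R library 3 (adjusted p = 0.045) and with the level of the clock gene Arntl as a covariate (0.50, adjusted p = 0.016). Without I/R library 1 the log2 fold change was 0.22 (adjusted p = 0.202), and also 0.22 in the fit with a covariate for Y-linked transcripts (adjusted p = 0.312). Arntl ran between 1.048 and 15.32 CPM and was above 10 CPM in I/R library 1 and Sham libraries 2 and 3; its part in the result was not tested beyond this fit.

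Atp5e, the epsilon subunit of the central stalk, was at 0.34 ± 0.19 in I/R against Sham. The catalytic Atp5b stood at 636.1, 661.9, 722.4 and 636.8 CPM in I/R + ML264 and 624.2, 548.1, 595.1 and 592.9 CPM in I/R, without overlap but with a log2 fold change of 0.17 ± 0.07 (adjusted p = 0.427). Atp5a1 was at 0.07 ± 0.08 in the same comparison. The c ring of the enzyme is made by Atp5g1, Atp5g2 and Atp5g3, which encode the same mature protein. Atp5g3 held 52.7% of their summed level per length in I/R + ML264, 51.5% in I/R and 51.4% in Sham, and Atp5g1 held 34.7% in I/R + ML264, 33.4% in I/R and 35.6% in Sham. With the shortest principal transcripts as lengths this order turned, as Atp5g1 held 78.7% in I/R + ML264, 77.3% in I/R and 79.2% in Sham, and Atp5g3 15.3% in I/R + ML264, 15.3% in I/R and 14.7% in Sham. Which of the pair is higher per length therefore depends on the length taken for Atp5g1. Atp5g2 was at -0.34 ± 0.16 in I/R + ML264 against I/R and 0.34 ± 0.16 in I/R against Sham, but 40.22% of its 31-base words are shared, most with the predicted gene Gm10175, which had a mean of 272.8 counts beside 283.0 for Atp5g2, so these values are uncertain.

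**Figure D4:**
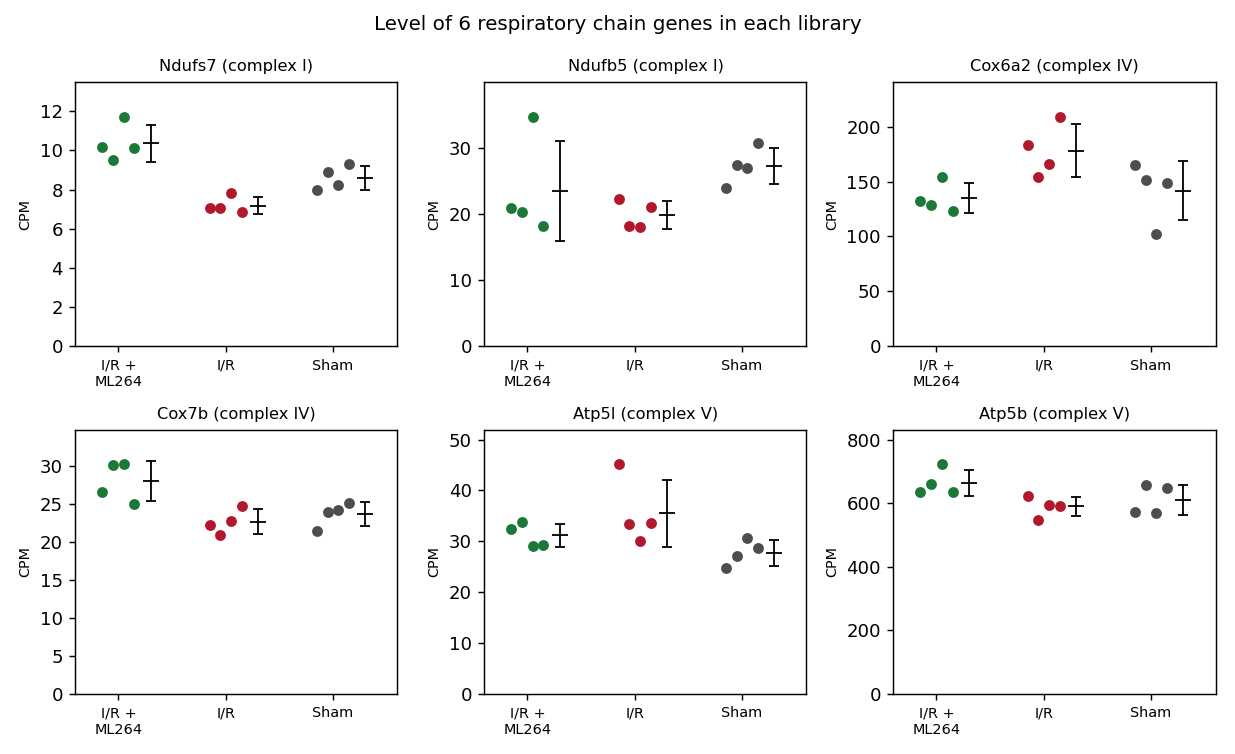
CPM of 6 members (vertical axes, from 0) in each library of I/R + ML264, I/R and Sham; dots are libraries and the bar beside them the mean with its SD (n = 4), and the genes were picked after their values were seen. Ndufs7 forms 3 separate ranges, Ndufb5 has 1 I/R + ML264 library at 34.78 CPM, and the Cox6a2 ranges of I/R + ML264 and I/R meet near 154.5 CPM.

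Members shifted together between libraries of the same group, by more than the groups differed. After the mean of each gene over the 12 libraries was taken off on the log2 scale, the median member stood at -0.01, 0.02, 0.21 and -0.11 in I/R + ML264 libraries 1 to 4, at -0.04, -0.13, -0.03 and 0.17 in I/R, and at -0.06, -0.006, -0.17 and 0.13 in Sham. Over all genes these medians lay between 0.002 and 0.016, where the TMM scaling itself largely holds them near 0. In I/R + ML264 library 3, 71 of 81 members were above their own mean and 31 had their highest value, and in Sham library 3 only 14 were above it and 30 had their lowest. All 5 complexes moved the same way in those libraries and in I/R library 4. The median of members under 1000 bases was 0.243 in I/R + ML264 library 3, 0.261 in I/R library 4 and -0.188 in Sham library 3. For longer members it was 0.186, 0.116 and -0.157 in the same order. Other nuclear genes under 1000 bases had medians of 0.046, 0.096 and 0.007, and longer ones 0.007, 0.008 and 0.014. The part of transcript length in this shift was not tested. The TCA cycle genes summed to 3883 CPM in I/R + ML264 library 3, the highest of the 12 libraries, and to 3130 CPM in Sham library 3, the lowest. In I/R library 4 they were at 3601 CPM, below I/R libraries 1 (3738 CPM) and 3 (3698 CPM). The mitochondrial ribosomal protein genes summed to 664.1 CPM in I/R + ML264 library 3, 689.6 CPM in I/R library 4 and 632.2 CPM in Sham library 3. Their lowest sum was 598.4 CPM in I/R + ML264 library 4 and their highest 691.8 CPM in Sham library 4. The cardiomyocyte markers, like the TCA cycle genes, were lowest in Sham library 3 (88070 CPM). They stood at 101100 CPM in I/R + ML264 library 3 and 98290 CPM in I/R library 4. These markers were highest in I/R library 1 (106700 CPM), where the median member was at -0.04. The part of cell composition in this shift was not tested. Without I/R + ML264 library 3 the median log2 fold change of the members was -0.04 in I/R + ML264 against I/R and -0.02 in I/R + ML264 against Sham, so the sign of both turned. It also turned without I/R library 2 in I/R + ML264 against I/R (-0.001) and with the Arntl covariate in I/R + ML264 against Sham (-0.02). In I/R against Sham the median ran between -0.058, without I/R library 4, and 0.056 over 23 alternatives, and its sign turned in 7 of them.

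**Figure D5:**
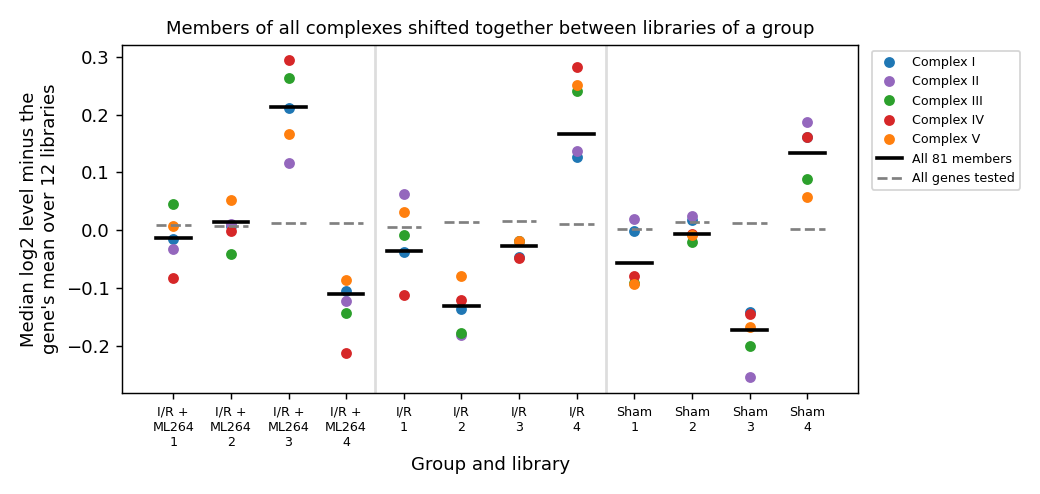
Median log2 level of the members after taking off each gene's mean over 12 libraries (vertical axis), for each library of I/R + ML264, I/R and Sham (horizontal axis); black bars are all 81 members, coloured dots the members of a complex, and dashed bars all genes tested. I/R + ML264 library 3 (0.21) and Sham library 3 (-0.17) lie at opposite ends.

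Calls among related mitochondrial genes are set beside those over all genes. The shares over all genes were 7.75% in I/R against Sham, 0.0502% in I/R + ML264 against I/R and 0.288% in I/R + ML264 against Sham. None of the 14 TCA cycle genes or 78 mitochondrial ribosomal protein genes was called in any comparison. Among 13 mitochondrially encoded mRNAs, mt-Nd1 and mt-Nd2, which encode membrane subunits of complex I, rose in I/R against Sham and fell in I/R + ML264 against I/R. They were 2 of the 8 genes called in the latter, and the other 11 mRNAs did not pass. The median log2 fold change of the 13 was 0.187 and then -0.402, against 0.002 and 0.000 over all genes. All I/R + ML264 libraries also lay below all I/R libraries for mt-Nd3, mt-Nd4l, mt-Nd5, mt-Nd6, mt-Atp6 and mt-Atp8, and the rest overlapped. Those groups did not overlap for 5.62% of all genes. mt-Nd1 averaged 33230 ± 3450 CPM in I/R + ML264, 48340 ± 5510 CPM in I/R and 33950 ± 2300 CPM in Sham. Its log2 fold change was 0.51 ± 0.09 in I/R against Sham (adjusted p = 0.00479), called in all 22 alternatives that keep the gene. Relative to I/R it was -0.54 ± 0.09 with ML264 (adjusted p = 0.046), called in 9 of 22 alternatives with adjusted p up to 0.136. Of the 12 fits that leave out a library, those without Sham library 3 or I/R + ML264 library 2 or 4 kept this call and the other 9 lost it. The Y-linked covariate, a replicate block, only 2 groups and a non-robust spread also lost it. For mt-Nd2 the value was 0.36 ± 0.09 in I/R against Sham (adjusted p = 0.0268), called in 15 of 22 alternatives with adjusted p up to 0.0949, and lost without Sham library 1, 3 or 4 or I/R library 1 or 4. The Y-linked covariate and the Arntl covariate also lost this call. With ML264 relative to I/R the value for mt-Nd2 was -0.57 ± 0.09 (adjusted p = 0.0347), called in 12 of 22 with adjusted p up to 0.11, and lost without Sham library 1, 2 or 4, I/R library 1, 2 or 4 or I/R + ML264 library 1. A replicate block, only 2 groups and a non-robust spread lost it too. The complex I partners of these subunits encoded in the nucleus, with a median of -0.04 and then 0.05, had 0 calls in either comparison.

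Assembly factors and regulators of the members had calls in I/R against Sham, where 7.75% of all genes were called, and 0 in the other comparisons. Of 16 tested assembly factors of complex I, Tmem126b fell (-0.46 ± 0.11, adjusted p = 0.0198), and of 21 for complex IV, Coa5 fell (-0.39 ± 0.07, adjusted p = 0.00475). Coa5 stood at 111.0 to 136.7 CPM in I/R + ML264, 103.4 to 109.9 CPM in I/R and 134.7 to 146.2 CPM in Sham, and was called in all 23 alternatives. Tmem126b was called in 18 of 23, with adjusted p up to 0.0976, and not without Sham library 3, Sham library 4 or I/R library 4. The Y-linked and Arntl covariates also lost the call of Tmem126b. None of the 10 factors of complexes II and III or the 3 of complex V tested was called. Of 20 regulators of respiratory genes, Ppargc1a, the coactivator PGC-1 alpha that induces mitochondrial genes, rose in I/R, with 1134, 507.9, 430.0 and 640.5 CPM in I/R and 302.1, 241.3, 193.8 and 243.3 CPM in Sham. Its log2 fold change was 1.47 ± 0.33 (adjusted p = 0.0311), and it was called in 16 of 23 alternatives with adjusted p up to 0.121, and not without Sham library 2, 3 or 4 or I/R library 4. The Y-linked covariate, a replicate block and only 2 groups in the fit also lost the call of Ppargc1a. Klf15, a heart regulator of fuel use, rose by 0.85 ± 0.25 (adjusted p = 0.0477) but of the 12 fits that leave out a library only that without I/R + ML264 library 1 called it, with adjusted p up to 0.131 over all alternatives. Klf15 was called in 6 of 23 alternatives, and not with the Y-linked or Arntl covariate.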

How the data were processed

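The authors deposited estimated counts of transcripts in 1 table without normalization. The tools and builds named in the submitters' processing notes are FastQC, kallisto and GRCm38 (mm10), with no versions or annotation release. Per the labels' protocols, libraries were made with a Nextera XT kit, which does not mark strand. Transcripts of a symbol were added up and the sums rounded to whole counts, 22.26 to 29.93 M per library. Genes were kept with filterByExpr (minimum 10 counts; 15952 of 25553 with counts), and all 12 libraries entered 1 edgeR 4.0.16 model in R 4.3.3 (TMM factors, robust quasi-likelihood F-test), with Benjamini-Hochberg adjustment over all genes and a threshold of 0.05. The biological coefficient of variation was 0.205. Transcript lengths are those of GENCODE M21 (GRCm38), where 98.6% of the deposited transcripts were found by accession. Kallisto divides reads among transcripts with shared sequence, so the share of 31-base words found in other genes was computed for 83 members, and 9 above 25% are uncertain: Atp5g2, Atp5h, Atp5o, Ndufa13, Ndufb11, Ndufb6, Ndufs3, Ndufs5 and Uqcrb. Members named are those called and the 3 highest and 3 lowest log2 fold changes per comparison at an average log2 CPM of at least 1. Also named are the 2 highest per length in each complex, the isoform families and those not tested. Others are marked as chosen later, except Sdhc and Atp5k, which were named for their levels within a complex. Of the members this rule names, 1 is not reported here. Members, lists and tests were chosen with earlier results of these data known. Alternatives were DESeq2 1.42.0, RLE and upper-quartile factors, other filters, a non-robust spread, only 2 groups, a replicate block, each library left out, Y-linked transcripts as a covariate, mitochondrially encoded genes left out and, added after seeing the data, the Arntl level as a covariate.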

Additional observations from a re-analysis of the deposited data

Results flagged for a closer look

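Single libraries stood apart from the other 3 of their group for 7 of 129 group values, judged by the gap to the nearest library as a share of the range of the 4. Chance gives about 1 in 20. I/R + ML264 library 3 had 188.7 CPM of Atp5g1 (others 165.5 to 168.5) and 34.78 CPM of Ndufb5 (others 18.21 to 20.89). I/R + ML264 library 4 had 2.955 CPM of Ndufa11 (others 3.934 to 4.044). I/R library 4 had 11.19 CPM of Ndufa1 (others 8.789 to 9.082). For genes at the floor, I/R library 2 had 0 CPM of Cox6b2 (others 0.1099 to 0.1207), Sham library 1 had 0.2262 CPM of Cox6b2 (others 0 to 0.03523) and I/R library 1 had 0.03662 CPM of Cox7b2 (others 0).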

How the results depend on the processing

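The count of members called was 0 in nearly every alternative. The exceptions each had 1 member: DESeq2 in I/R + ML264 against I/R (Ndufs7), and in I/R against Sham only the 2 groups compared (Ndufb5), the Arntl covariate (Atp5l), and the fits without I/R + ML264 library 3 (Ndufb5) or I/R library 3 (Atp5l). Leaving out each library gave 0 to 1 members in I/R against Sham and 0 in the other comparisons. Over all genes, those fits called 659 to 1485 in I/R against Sham, 9 to 101 in I/R + ML264 against Sham and, for ML264 relative to I/R, 0 to 85. In I/R against Sham the count fell to 456 with Y-linked transcripts as a covariate and to 634 with Arntl. In I/R + ML264 against I/R it was 151 with DESeq2, 22 with no filter and 2 with a non-robust spread. In I/R + ML264 against Sham it was 370 with DESeq2, 78 with no filter, 72 with a non-robust spread, 27 with only the 2 groups compared, 12 with the Y-linked covariate and 12 with Arntl. The cause was not tested. With the replicate block, 1 gene was called for ML264 relative to I/R, 19 in I/R + ML264 against Sham and 1009 in I/R against Sham, with 0 members in each. After group means were taken off, libraries with the same number correlated at -0.11 to 0.097 over all genes, none of the 12 pairs over 0.1. Over the members the range was -0.368 to 0.178. Libraries with different numbers were not correlated for reference, so this cannot decide whether the numbers pair the libraries. Summed levels of the complexes moved by less than the pooled SD in every setting tried. Of 2411 log2 fold changes of the 35 named members tested, 92 changed sign under an alternative, all of them at most 0.24 in size in the fit reported and called in neither fit. Counts of 3 or fewer cannot be told from 0 at this depth.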
